A study of Mus musculus with 10 samples.

Results

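The transcripts described are those of 10 genes that mark the endothelium, the cell layer lining blood vessels and heart chambers: the receptors Kdr, Flt1, Flt4, Tek, Tie1, Eng and Aplnr, the junction and adhesion proteins Pecam1 and Cdh5, and the secreted clotting protein Vwf. They were picked by symbol, through the GENCODE annotation of GRCm39, from a table of 78298 genes; all 10 were found and all 10 passed the filter on low counts. The table holds bulk RNA sequencing of hearts from female C57BL/6J mice. Each was collected 72 h after 1 intraperitoneal injection of 30 mg/kg doxorubicin, an anthracycline cancer drug that damages the heart. Atrial markers differed widely between the samples, so they may not hold the same parts of the heart, which was not tested. One group of 5 hearts is labelled wild type (W1 to W5) and the other, also of 5, carries the label of a germline p38δ knockout (K1 to K5), a deletion in every cell of the animal and not in endothelium alone. The animals' age is not in the labels, the numbers follow the order of deposit, and the sample names of the groups follow different schemes, so any difference in how the groups were collected cannot be told apart from genotype. No heart went without doxorubicin, so what the drug did to these transcripts was not measured. In bulk heart RNA, fewer endothelial cells and less RNA per endothelial cell cannot be told apart.

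Endothelial cells read growth signals through a small set of surface receptors. Kdr (VEGFR2) is the main signalling receptor for VEGF-A, Flt1 (VEGFR1) binds the same ligand and acts largely as a decoy, and Flt4 (VEGFR3) binds VEGF-C and VEGF-D and is best known in lymphatic vessels. Tek (Tie2) is the angiopoietin receptor that keeps vessels quiescent, with Tie1 as its partner. Cdh5 (VE-cadherin) and Pecam1 (CD31) hold neighbouring cells together, Eng (endoglin) is a co-receptor for BMP9 and BMP10, Aplnr is the apelin receptor, and Vwf encodes von Willebrand factor, which tethers platelets. In the heart, capillaries make up most of the endothelium and have little Vwf, whereas veins, larger vessels and the endocardium that lines the chambers have more.

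Of the 10 genes, Vwf and Kdr had the smallest unadjusted p in the group comparison, and neither passed after adjustment. The 250 bases upstream of the canonical start of each are shown, read from GRCm39 on the coding strand from 5′ to 3′. Capitals mark GGAA, the core letters bound by ETS factors such as Erg and Fli1, on either strand. The windows hold no annotated exon and lie at chr6:125529661-125529910 (plus strand) for Vwf and chr5:76139119-76139368 (minus strand) for Kdr.
Vwf: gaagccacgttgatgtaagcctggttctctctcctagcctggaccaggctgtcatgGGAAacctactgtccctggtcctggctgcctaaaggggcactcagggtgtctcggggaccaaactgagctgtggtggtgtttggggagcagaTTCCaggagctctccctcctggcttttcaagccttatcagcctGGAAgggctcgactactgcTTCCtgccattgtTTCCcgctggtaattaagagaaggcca
Kdr: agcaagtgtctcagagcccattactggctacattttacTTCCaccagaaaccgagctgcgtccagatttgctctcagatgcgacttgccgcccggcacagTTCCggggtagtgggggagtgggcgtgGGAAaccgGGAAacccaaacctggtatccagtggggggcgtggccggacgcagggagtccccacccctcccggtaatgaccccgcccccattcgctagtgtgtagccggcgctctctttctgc
The core occurred 5 times upstream of Vwf and 4 times upstream of Kdr. The windows of 9 of the 10 genes were read, and all 9 held at least 1, from 1 in Aplnr to 6 in Flt4, with a median of 3. Over 21770 protein-coding genes the median was also 3, and 93.9% held at least 1, so these letters do not set the 9 genes apart. A match is a description of the letters and not of a bound site.

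Library totals lay between 21403189 and 40627138 counts. Mapk13, the p38δ gene, had 1 to 5 counts in 4 wild-type-labelled libraries, 292 in W1, and 9 to 15 in the knockout-labelled group, so it did not check the labels and groups are named as labelled. W1 stood apart. Its summed lung epithelial markers reached 1056 CPM, depth-scaled counts with TMM factors, against 90.5 CPM in W3 and 0.486 to 2.11 CPM in the other 8. Its summed atrial muscle markers were 2866 CPM, followed by 1214 CPM in W2, against 862 to 959 CPM in the other 8. One of them, Bmp10, had 99.4 CPM in W1, 34.95 CPM in W2 and at most 0.0962 CPM in every other library. Whether the samples hold the same parts of the heart was not tested. K4 had the highest summed ventricular muscle markers, 75050 CPM against 27110 to 57730 CPM in the other 9. The TMM factor of W1 was 1.302, against 0.922 to 1.01 in the other 9, and a larger factor gives a lower CPM. Correlations were not repeated with other scaling factors.

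Divided by the length of the canonical transcript, the levels of the 10 genes spanned a wide range. Pecam1 was highest at 54.2 ± 7.60 CPM per kb (SD over 10 hearts) and exceeded the next gene in all 10. Cdh5 (32.2 ± 4.40 CPM per kb) and Flt1 (31.8 ± 6.37 CPM per kb) followed and did not differ beyond their spread, with Cdh5 the higher in 6 of 10 hearts. Eng (20.2 ± 2.86 CPM per kb) and Kdr (18.8 ± 4.92 CPM per kb) also overlapped, as did Tek (14.9 ± 1.57 CPM per kb) and Tie1 (13.2 ± 1.16 CPM per kb). By its mean, 6.71 ± 1.79 CPM per kb, Vwf stood below these 7 genes. It was below Tie1 in 9 of 10 hearts and above Flt4 in all 10. Flt4 had 2.36 ± 0.212 CPM per kb and Aplnr, the lowest, 1.16 ± 1.04 CPM per kb. Dividing by all annotated exons merged instead moved Cdh5 to first place and Eng to place 7, and left Vwf, Flt4 and Aplnr as the lowest 3. Tie1 and Flt4 varied least between hearts (coefficients of variation of 8.75% and 8.97%), and Kdr, Vwf and Aplnr most (26.2%, 26.7% and 89.6%).

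**Figure D1:**
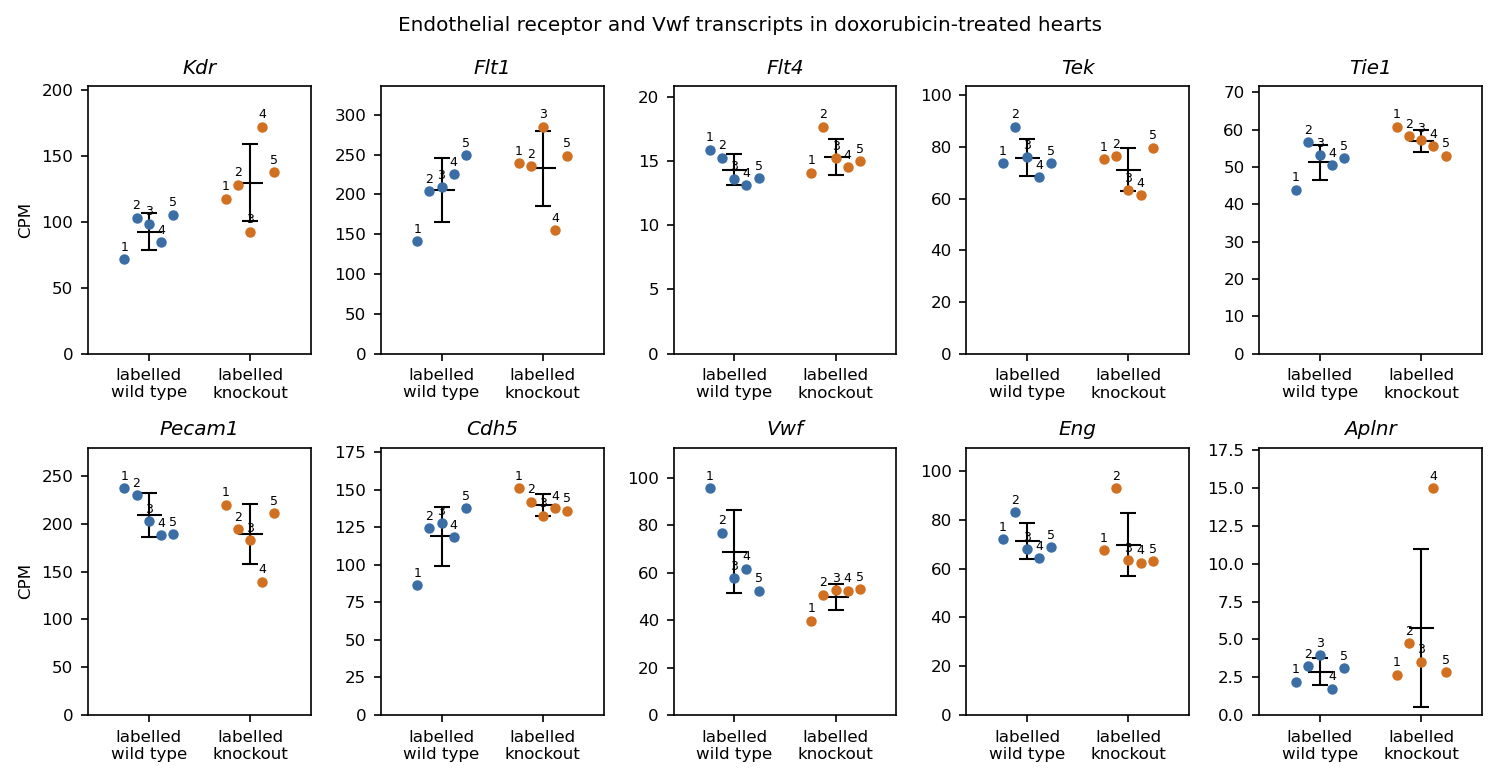
CPM of each of the 10 transcripts (vertical axis, from 0) in the 5 libraries labelled wild type (blue) and the 5 labelled knockout (orange), with the library number beside each point; black bars are the mean and SD. The groups overlap in every panel, Vwf is highest in W1 and W2 (95.5 and 76.8 CPM), and Aplnr is highest in K4 (15.0 CPM).

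Between the groups, Kdr was higher (mean 92.6 against 129.6 CPM) and Vwf lower (68.8 against 49.7 CPM) in the knockout-labelled hearts, and neither passed the test. Aplnr had the largest log2 fold change, 1.01, which rested on K4. Of the 10 genes, 0 were called by edgeR's quasi-likelihood test after Benjamini-Hochberg adjustment over 16700 genes (n = 5 per group), where 0.353% of all tested genes were called. DESeq2 and limma voom also called 0 of the 10, against 0.718% and 0.335% of the genes they tested. Before adjustment, 2 of the 10 had p under 0.05 by edgeR, Kdr and Vwf, where 6.86% of all tested genes did. In none of the 10 did all 5 hearts of a group lie above all 5 of the other, which held for 1.78% of tested genes. The fitted values were above 0 in 6 genes and below 0 in 4, with a median log2 fold change of 0.12 against -0.01 over all tested genes.

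Kdr (ENSMUSG00000062960, chromosome 5, 76093487 to 76139884) stood at 71.6, 103, 98.5, 84.3 and 106 CPM in W1 to W5. In K1 to K5 it stood at 118, 128, 92.6, 172 and 138 CPM. Of the knockout-labelled hearts, 4 lay above all 5 of the other group, and K3 lay within its range. The log2 fold change was 0.49 (95% interval 0.12 to 0.85, adjusted p = 0.616 by edgeR, unadjusted p = 0.0103). K4, the highest, contributed to the size: without it the log2 fold change was 0.36, and without it and W1 it was 0.28 (adjusted p = 0.568 by edgeR).

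Flt1 (ENSMUSG00000029648, chromosome 5, 147498414 to 147662826), the decoy receptor, stood at 141, 204, 209, 225 and 250 CPM in the wild-type-labelled hearts and at 240, 235, 285, 155 and 249 CPM in the knockout-labelled ones. The lowest heart of each group was W1 and K4, and the other 8 lay between 204 and 285 CPM. The log2 fold change was 0.18 (95% interval -0.23 to 0.58, adjusted p = 0.852 by edgeR). It was 0.07 without W1, 0.09 without K3 and 0.29 without K4, with adjusted p of 0.982, 0.948 and 0.77 by edgeR. Flt4 (ENSMUSG00000020357, chromosome 11, 49500090 to 49543582), the VEGF-C receptor, ranged from 13.1 to 15.9 CPM and from 14.1 to 17.7 CPM in the 2 groups, with a log2 fold change of 0.09 (95% interval -0.11 to 0.29). It was 0.04 without K2, the highest heart, and -0.02 with libraries scaled by their totals alone.

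Tek (ENSMUSG00000006386, chromosome 4, 94627291 to 94763224) ranged from 68.3 to 87.8 CPM over W1 to W5 and from 61.2 to 79.7 CPM over K1 to K5. Its log2 fold change was -0.09 (95% interval -0.31 to 0.13, adjusted p = 0.858 by edgeR), and it was -0.03 without W2, -0.05 without K3 and -0.04 without K4. Tie1 (ENSMUSG00000033191, chromosome 4, 118328385 to 118347261), its partner, stood at 43.9, 56.6, 53.2, 50.4 and 52.3 CPM against 60.8, 58.2, 57.2, 55.6 and 53.0 CPM. All knockout-labelled hearts but K4 and K5 lay above the highest wild-type-labelled one. The Tie1 log2 fold change was 0.15 (95% interval -0.02 to 0.32, adjusted p = 0.733 by edgeR).

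Cdh5 (ENSMUSG00000031871, chromosome 8, 104828231 to 104871143), the adherens junction cadherin, stood at 86.3, 124, 128, 118 and 138 CPM in the wild-type-labelled hearts. In the knockout-labelled hearts it held a narrow band of 151, 142, 133, 138 and 136 CPM. Only W5 of the wild-type-labelled group reached that band. The log2 fold change was 0.23 (95% interval -0.03 to 0.50, adjusted p = 0.722 by edgeR), and 0.14 without W1. Pecam1 (ENSMUSG00000020717, chromosome 11, 106543689 to 106641454), the other adhesion gene, stood at 237, 230, 203, 188 and 189 CPM against 220, 194, 183, 140 and 211 CPM, with a log2 fold change of -0.14 (95% interval -0.44 to 0.15, adjusted p = 0.835 by edgeR). That value rested on W1 and K4, the highest and the lowest heart: it was -0.09 without W1, -0.05 without K4 and -0.0004 without both. With TMM scaling, Pecam1 was highest in W1, where Cdh5 was lowest.

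Eng (ENSMUSG00000026814, chromosome 2, 32535543 to 32574661) ranged from 64.3 to 83.2 CPM and from 62.4 to 92.9 CPM, and its mean differed by less than the spread between hearts (log2 fold change -0.03, 95% interval -0.30 to 0.24, and -0.15 without K2). Its span overlaps Fpgs, with which some of its annotated transcripts share sequence, so its counts are less certain for that reason. None of the other 9 had a near-identical copy. Aplnr (ENSMUSG00000044338, chromosome 2, 84966569 to 84970267) stood at 2.20, 3.25, 3.98, 1.73 and 3.09 CPM against 2.68, 4.75, 3.52, 15.0 and 2.82 CPM. The counts behind these values ran from 36 to 462. The span of Aplnr overlaps Lrrc55os on the same strand, and the part that gene has in these counts was not tested. Apart from K4 the groups had like levels. The log2 fold change of 1.01 (95% interval -0.09 to 2.11, adjusted p = 0.717 by edgeR) became 0.27 without that library (adjusted p = 0.848).

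Vwf (ENSMUSG00000001930, chromosome 6, 125523737 to 125663642) stood at 95.5, 76.8, 57.6, 61.6 and 52.5 CPM in the wild-type-labelled hearts. In the knockout-labelled hearts it stood at 39.8, 50.8, 52.7, 52.4 and 53.1 CPM. The wild-type-labelled hearts lay higher, but W5 fell just inside the range of the other group. The log2 fold change was -0.47 (95% interval -0.83 to -0.11, adjusted p = 0.616 by edgeR, unadjusted p = 0.0114). It was -0.32 without W1 (adjusted p = 0.658) and -0.20 without W1 and W2 (adjusted p = 0.97, unadjusted p = 0.0784, by edgeR), a pair left out after the data were seen because their atrial and endocardial markers were highest.

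Summed markers of endocardium were highest in the same hearts as Vwf. Their summed level was 215 and 147 CPM in W1 and W2, 102 to 106 CPM in W3 to W5, and 95.7 to 105 CPM in the knockout-labelled hearts. Of 8 tested endocardial genes 0 were called and 7 lay below 0, with a median log2 fold change of -0.61. Cytl1, a small secreted protein, had 10.2 ± 9.24 against 3.68 ± 1.19 CPM (SD, n = 5 each), and Cgnl1, a junction-associated protein, 56.5 ± 11.4 against 46.6 ± 2.94 CPM. Nfatc1, a transcription factor on the same list named after its values were seen, did not follow them. It had 15.2 and 15.9 CPM in W1 and W2, and 15.7 ± 0.356 against 15.9 ± 1.19 CPM by group. Across the 10 hearts Vwf correlated with the mean endocardial level on the log2(CPM + 1) scale (Pearson r = 0.914, permutation p = 4.4e-04, adjusted p = 0.0231 over 105 relations; Spearman rho = 0.794, permutation p = 0.00893, adjusted 0.234). The r was 0.888 after subtracting each group's mean and 0.666 without W1 and W2. With the mean atrial marker level r was 0.899 (permutation p = 0.00158, adjusted 0.0415; rho = 0.636, p = 0.0539, adjusted 0.333), and 0.35 without the same 2 libraries, so that relation rests on them. Atrial markers also ran against Flt1, by rank (rho = -0.915, permutation p = 5.2e-04, adjusted 0.0273) but not by Pearson's r after adjustment (r = -0.686, permutation p = 0.0243, adjusted 0.147), which was -0.494 without W1 and W2. The part that atrial or endocardial tissue has in the Vwf and Flt1 levels was not tested.

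**Figure D2:**
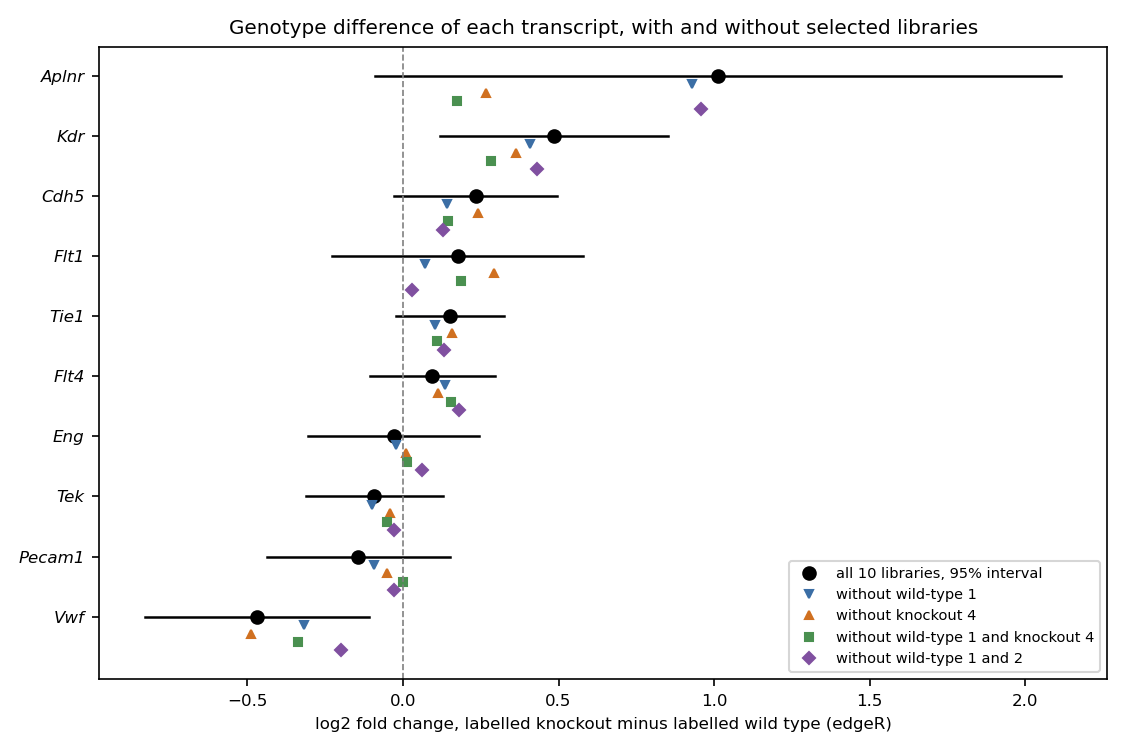
Log2 fold change of each transcript, labelled knockout minus labelled wild type (horizontal axis); black circles and lines are the value and 95% interval over all 10 libraries, and coloured marks are the same fit without the named libraries. The interval leaves out 0 for Kdr and Vwf only, Aplnr moves from 1.01 to 0.27 without K4, and Vwf from -0.47 to -0.20 without W1 and W2.

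The 10 transcripts, which mark endothelium but not all the same vessel types, did not rise and fall together from heart to heart. Over the 45 pairs the Pearson r of log2(CPM + 1) had a median of 0.0908, with 26 pairs above 0 and 19 below, and 2 pairs passed adjustment over the 105 relations computed. Cdh5 and Vwf ran in opposite directions (r = -0.915, permutation p = 3.1e-04, adjusted 0.0231; rho = -0.964, permutation p = 8e-05, adjusted 0.0084). That relation was -0.868 after subtracting group means and -0.92 without W1 and W4, the 2 farthest from the median Cdh5 level. Tie1 and Cdh5 ran together (r = 0.892, permutation p = 0.00216, adjusted 0.0454; rho = 0.661, p = 0.043, adjusted 0.333), but r was 0.473 without W1 and K1, so that relation rests on those 2. Tek with Pecam1 (r = 0.786, permutation p = 0.00661, adjusted 0.115; rho = 0.733, p = 0.0206) and Kdr with Aplnr (r = 0.755, permutation p = 0.00995, adjusted 0.116; rho = 0.527, p = 0.125) did not pass, and their r was 0.531 and 0.382 without the 2 hearts farthest from the median of the first gene. Endocardial markers ran against Cdh5 (r = -0.906, permutation p = 0.00876, adjusted 0.115; rho = -0.697, p = 0.0305), with r = -0.593 without W1 and W2.

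**Figure D3:**
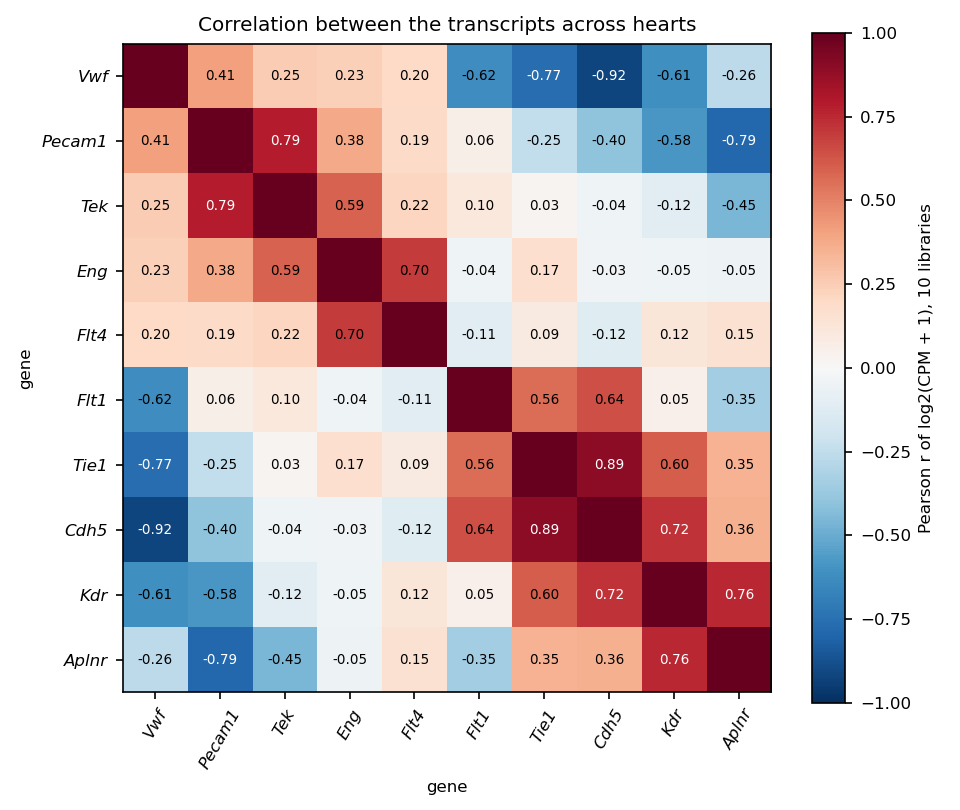
Pearson r between each pair of the 10 transcripts (both axes) on the log2(CPM + 1) scale over 10 hearts, from -1 (blue) to 1 (red). Cdh5 and Vwf have the lowest value, -0.92, and Tie1 and Cdh5 the highest, 0.89; blue and red cells are mixed across the 45 pairs.

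**Figure D4:**
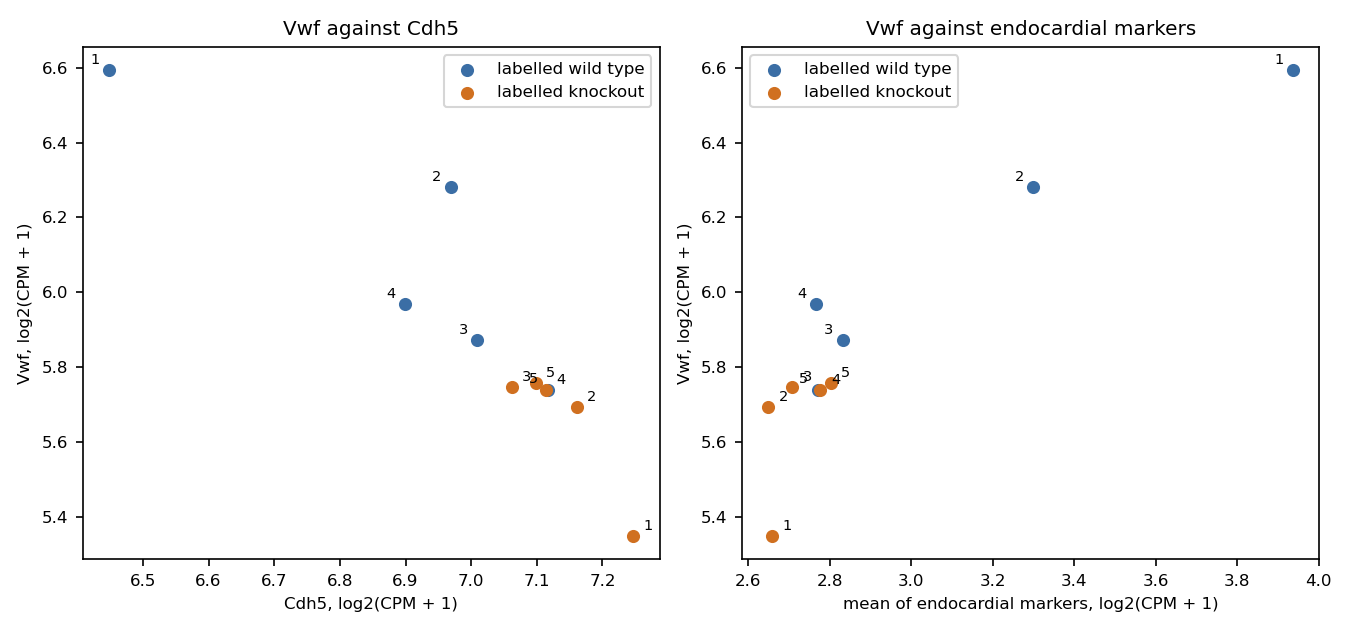
Vwf on the log2(CPM + 1) scale against Cdh5 (left) and against the mean of 9 endocardial markers (right), with 1 point per heart, labelled wild type in blue and labelled knockout in orange, and the library number beside it. High Vwf goes with low Cdh5, K1 has the highest Cdh5 and the lowest Vwf, and W1 and W2 lie alone at the upper right of the second panel.

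Pecam1 ran against the level of ventricular muscle markers (r = -0.873, permutation p = 0.00106, adjusted 0.0371; rho = -0.83, p = 0.00449, adjusted 0.157), with r = -0.664 without K4 and W1. Both are shares of the same library total, and the part that muscle RNA has in the Pecam1 level was not tested. K4 combined the highest Kdr and Aplnr with the lowest Pecam1 and, in its group, the lowest Flt1.

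A ratio between 2 transcripts of the same heart does not depend on the library total, and 6 such ratios were compared. Tie1 to Tek was 0.596, 0.645, 0.701, 0.738 and 0.711 in the wild-type-labelled hearts and 0.808, 0.761, 0.902, 0.909 and 0.664 in the knockout-labelled ones. It was higher in 4 of 5 knockout-labelled hearts than in any of the other group. The log2 difference was 0.25 ± 0.10 (SE; two-sided exact permutation test, p = 0.0476, adjusted p = 0.27 over the 6 ratios; n = 5 each), and 0.16 without W1 and K4. Flt1 to Kdr, decoy to signalling receptor, was 2.22 ± 0.297 against 1.93 ± 0.778 (SD, n = 5 each; exact permutation p = 0.413, adjusted 0.495). The log2 difference was -0.30 ± 0.30 SE, -0.49 without K3 and -0.05 without K4. The ratio ran from 0.901 in K4 to 3.08 in K3, a wider range than the 1.98 to 2.67 of the wild-type-labelled hearts. Flt4 to Kdr had a log2 difference of -0.38 ± 0.21 SE, and -0.25 without W1 or without K4. Vwf to Pecam1 had -0.29 ± 0.20 SE, and -0.15 without K1. Eng to Cdh5 had -0.29 ± 0.17 SE, and -0.17 without W1. Aplnr to Kdr had 0.26 ± 0.40 SE, 0.12 with a pseudocount of 1 and also without W4, 0.42 without K1, 0.46 without K5 and -0.07 without K4. None of the 6 passed after adjustment, and the smallest p that 5 against 5 allows is 0.00794.

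Partners of these receptors were read from lists of 79 genes, of which 71 were tested, 1 was called, 43 lay above 0 and 28 below, with a median log2 fold change of 0.03. The called gene was Mmrn1, multimerin 1, a platelet and endothelial binding protein, and given how the lists were written it is not an independent find. It had 15.1 ± 3.77 CPM in the wild-type-labelled hearts and between 0 and 0.0394 CPM in the knockout-labelled ones (adjusted p = 8.94e-08 by edgeR). It was on the list of partners of Vwf in storage, cleavage and platelet binding, of which 7 of 10 were tested and 4 lay above 0 and 3 below, with a median of 0.0099. Its relative Mmrn2 had 36.9 ± 4.15 against 37.2 ± 1.78 CPM (SD, n = 5 each).

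Among VEGF ligands and co-receptors 0 of 7 were called, with 4 above 0 and 3 below and a median of 0.05. Vegfa, the ligand of Kdr and Flt1, stood at 120, 136, 121, 140 and 166 CPM against 117, 136, 139, 239 and 139 CPM, and was highest in the heart that had the most Kdr. Vegfd, a ligand of Flt4, had 4.79 ± 4.53 against 2.74 ± 0.535 CPM, with 12.8 CPM in W1. Of the angiopoietin list 0 of 3 tested genes were called (median -0.22), and Ptprb, the phosphatase that silences Tek, had 152 ± 24.7 against 179 ± 14.3 CPM. Apln, the ligand of Aplnr, was near the lower limit of testing at 0.384 to 1.25 CPM in the wild-type-labelled hearts. In the knockout-labelled hearts it stood at 0.551, 0.951, 1.24, 4.35 and 0.868 CPM, so ligand and receptor were both highest in K4. The part that this library has in the Kdr, Aplnr, Vegfa and Apln levels of its group was not tested beyond leaving it out.

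In the BMP9 and ALK1 pathway, which Eng serves, 0 of 9 tested genes were called, 2 lay above 0 and 7 below, with a median of -0.10. Smad1, a transducer of the pathway, had 11.2 ± 1.58 against 12.4 ± 0.819 CPM and its target Id1 23.4 ± 4.41 against 21.8 ± 6.27 CPM. The ligand Bmp10, an atrial product chosen here after its values were seen, did not pass the filter: it had 99.4 and 34.95 CPM in W1 and W2 and at most 0.0962 CPM in the other 8. Of 11 junction partners 0 were called, with a median of 0.04. Ctnna1, α-catenin, had 420 ± 60.3 against 432 ± 34.4 CPM, and Ocln, occludin, 1.69 ± 1.999 against 0.707 ± 0.179 CPM.

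Of 15 tested endothelial transcription factor genes 0 were called, while 14 lay above 0, with a median of 0.12. Over all tested genes 46.6% lay above 0. Ets1, an ETS factor, stood at 38, 44.6, 42.45, 32.5 and 41.2 CPM against 54.9, 62.7, 42.9, 57.9 and 49.4 CPM. Only K3 of the knockout-labelled hearts lay within the range of the others (log2 fold change 0.43, adjusted p = 0.366 by edgeR). Epas1, which encodes the hypoxia factor HIF-2α, had 294 ± 25.3 against 320.1 ± 28.4 CPM. Among 18 endothelial signalling genes 0 were called, with a median of 0.03. Esm1, a secreted product of sprouting endothelium, had 0.422 ± 0.13 against 0.773 ± 0.311 CPM, and the sphingosine receptor gene S1pr1 had 91.8 ± 14.3 against 97.3 ± 30.0 CPM.

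Markers of vessel types, also listed with earlier results known, were called in 1 case, again Mmrn1, a lymphatic marker. Over all tested genes 0.353% were called. Capillary markers lay above 0 in 10 of 11 genes with a median of 0.16, and their examples were Aqp7, a glycerol channel (15.2 ± 2.21 against 19.6 ± 5.52 CPM), and the fatty acid transporter Cd36 (2894 ± 556 against 3153 ± 738 CPM), which muscle cells also express. Arterial markers had a median of -0.01 over 11 genes, 5 above 0 and 6 below; Efnb2, the arterial ephrin, had 20.9 ± 2.81 against 26.3 ± 2.01 CPM (adjusted p = 0.569 by edgeR), and the semaphorin Sema3g 37.3 ± 6.64 against 37.1 ± 13.8 CPM. Gja5, connexin 40, had 10.3 ± 8.30 against 4.55 ± 1.71 CPM and the kinase gene Bmx 3.84 ± 2.79 against 1.97 ± 0.629 CPM; both were chosen after their values were seen, and like Efnb2 they had an unadjusted p under 0.05 (0.0277 and 0.0367 by edgeR, adjusted 0.694 and 0.711). Venous markers had a median of -0.36 over 8 tested genes, with the adhesion gene Vcam1 at 23.7 ± 9.35 against 17.9 ± 3.73 CPM and Ephb4 at 44.0 ± 6.07 against 46.8 ± 4.62 CPM. Lymphatic markers had a median of -0.33 over 9 tested genes, with ceruloplasmin, Cp, at 287.5 ± 26.4 against 260.3 ± 34.6 CPM. That is above Pecam1 in both groups (209 and 190 CPM), and which cells the Cp transcripts came from was not tested. Summed capillary markers were lowest in W1 (3062 CPM) and K4 (2836 CPM), the same hearts in which Flt1 was lowest, and lay between 3667 and 5230 CPM in the other 8. Cd36 made up most of that sum, with 2040 CPM in W1 and 2068 CPM in K4. The mean log2(CPM + 1) of the list was also lowest there, 5.25 and 5.39 against 5.69 to 6.17 in the other 8. Fabp4 went the other way in W1, where its 700 CPM was the highest of the wild-type-labelled hearts.

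**Figure D5:**
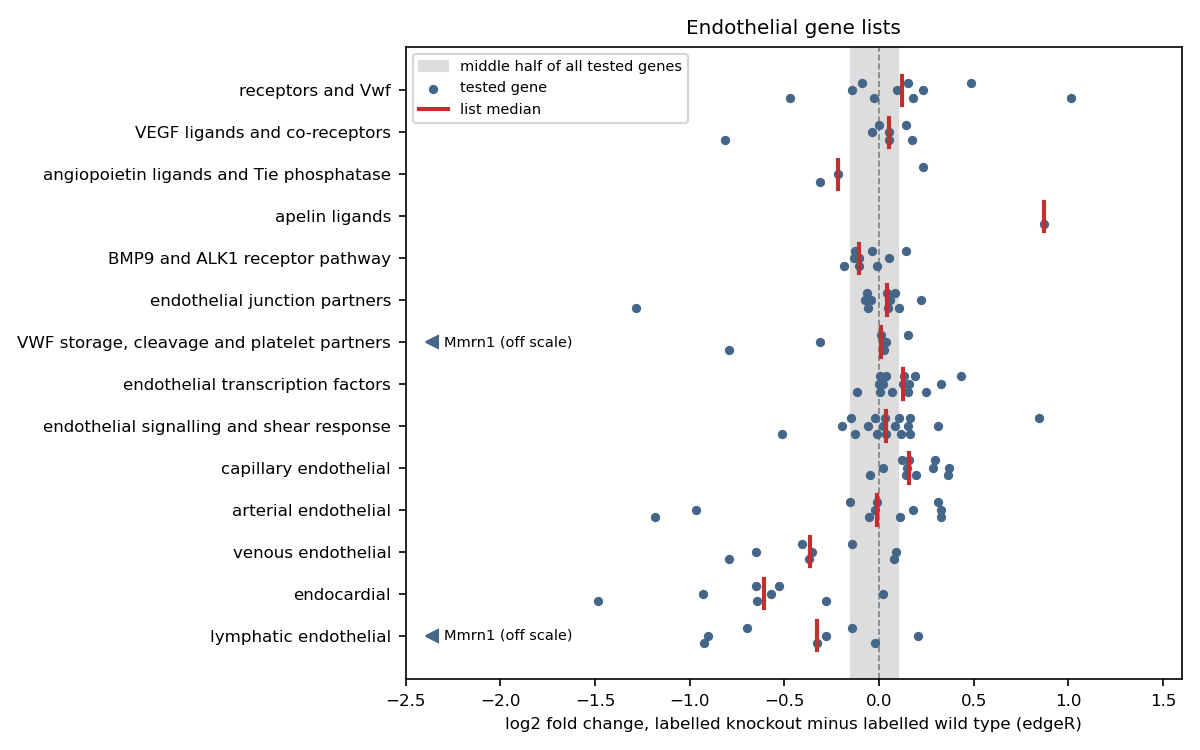
Log2 fold change, labelled knockout minus labelled wild type (horizontal axis), of each tested gene of the 10 receptors and Vwf and of 13 endothelial lists (rows); red bars are list medians and the grey band spans the central values of all tested genes, -0.147 to 0.0975. Medians of capillary markers (0.16) and endocardial markers (-0.61) lie on opposite sides of 0, and Mmrn1 is off the scale to the left.

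Lists of other cell types held 0 called genes, and no gene of any list was at 0 in all 10 hearts. All 10 ventricular muscle markers lay above 0 (median 0.14), among them Myh6 at 9578 ± 3882 against 10560 ± 8032 CPM and Actc1 at 1288 ± 498 against 1908 ± 1750 CPM. All 8 tested atrial markers lay below 0 (median -1.16), as did all 10 mesothelial (median -1.25) and all 10 macrophage markers (median -0.65). Summed, these stood highest in W1, at 169 CPM for mesothelial and 674 CPM for macrophage markers. Mesothelial sums were 41.2 to 55.7 CPM in W2 to W5 and 20.9 to 41.65 CPM in the knockout-labelled hearts. Macrophage sums were 163 to 242 CPM in W2 to W5 and 173 to 214 CPM in the knockout-labelled hearts. Of the 10 mesothelial genes 8 had an unadjusted p under 0.05 by edgeR, where 6.86% of all tested genes did. Nppa and Myl7 are atrial products (189 ± 253 against 65.3 ± 34.1 CPM, and 40.2 ± 75.1 against 0.21 ± 0.125 CPM), Upk3b and Gpm6a mesothelial ones (11.1 ± 7.505 against 3.65 ± 1.76 CPM, and 15.5 ± 9.43 against 6.94 ± 2.51 CPM). The macrophage genes Cd163 and Lyz2 had 46.1 ± 26.4 against 25.8 ± 7.58 CPM and 114.6 ± 96.0 against 69.8 ± 11.1 CPM. The fibroblast list, 9 of 10 below 0 (median -0.23), was led by Gsn at 860.5 ± 271 against 594.8 ± 68.8 CPM. Summed fibroblast markers were 3006 CPM in W1, 1541 to 1791 CPM in W2 to W5 and 1322 to 1521 CPM in the knockout-labelled hearts. The part that such differences in tissue make-up have in the endothelial levels was not tested. Pericyte and smooth muscle markers lay above 0 in 7 of 10 (median 0.26), with Notch3 at 22.7 ± 2.10 against 27.1 ± 2.48 CPM and Rgs5 at 617.9 ± 135 against 684.6 ± 62.7 CPM. Of 5 tested platelet markers, which matter for Vwf because megakaryocytes also make it, 3 lay below 0 (median -0.43), with Pf4 at 6.14 ± 5.44 against 3.57 ± 0.695 CPM. Of 8 tested lung endothelial markers 4 lay below 0 (median -0.0012), with Hpgd at 10.8 ± 8.96 against 6.10 ± 2.81 CPM and Car4 at 28.7 ± 7.20 against 35.3 ± 13.0 CPM. Of the lung epithelial list 1 of 10 was tested, Ager at 0.521 ± 0.617 against 0.388 ± 0.045 CPM, and Scgb1a1 made up most of its sum in W1.

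The genes whose levels most resembled the mean standardised level of the 10 were, of 9950 compared over 10 hearts with group means subtracted, Pogk (r = 0.981), the long noncoding RNA Vis1 (0.928), Anxa11 (0.899), Jak3 (0.898) and Shank3 (0.886), followed by Zxdb, Fnbp1, P3h4, Snapc2 and Adra1b with r from 0.857 to 0.883. None belonged to the endothelial lists, and as the highest of many values they carry no p. The mean itself was highest in K2 and W2 and lowest in W4 and W1.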

How the data were processed

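The labels' protocols give STAR 2.5.2 and the GRCm39 genome for alignment; the submitters' processing notes list RSEM 1.3.0. The authors' deposited table holds expected counts per gene, already whole numbers, in 10 columns matched to samples by title. For the strand setting the status is: not given in the sources used here. Reads from antisense genes, which overlap most of the 10, therefore cannot be told apart. Symbols and lengths came from GENCODE vM39, which held 78168 of the identifiers.

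Genes passing edgeR's expression filter (minimum count of 10) were tested with edgeR 4.0.16 in R 4.3.3 (TMM factors, robust quasi-likelihood F test, no covariate, Benjamini-Hochberg adjustment at 0.05 over all 16700). Approximate standard errors came from each fold change and its F value, and 95% intervals from the residual degrees of freedom. No label states that the hearts came from separate animals, so the p-values reflect only how far these samples differ, which may be technical; each of 20 pairs within a group differed beyond sampling noise (lowest chi-square per degree of freedom 8.93). Ratios used exact permutation tests and correlations 100000 permutations in SciPy 1.17.1. Copies were sought with BLAST 2.17.0 (95% identity over 200 bases). Alternatives were DESeq2 1.42.0, limma 3.58.1 voom, sva 3.50.0, other scalings and filters, and left-out libraries. The edgeR procedure was tested on simulated data. Named were all 10 genes, of each list the called genes, the smallest p and the highest level per kb, and the 10 most alike. The members and lists were chosen with earlier results of these data known. The upstream sequence of Cdh5 is not reported here.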

Additional observations from a re-analysis of the deposited data

Results flagged for a closer look

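A heart was listed here where its gap to the nearest of the 5 hearts of its group, divided by the group's whole range, was above 0.71. For independent groups of normally distributed values, chance gives such a gap in about 1 in 20. Here 25 of 98 groups examined had one. These groups share the same 10 libraries, and their genes were chosen with earlier results known, so the shares cannot be compared. Vwf was lowest in K1, at 39.8 CPM with the nearest heart at 50.8 CPM (gap ratio 0.827). Eng was highest in K2, at 92.9 CPM with the nearest heart at 67.4 CPM (gap ratio 0.835). Aplnr was highest in K4, at 15 CPM with the nearest heart at 4.75 CPM (gap ratio 0.831). 

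The highest value of its group was in W1, with the gap ratio in parentheses, for Ager at 1.6 CPM (0.812), Cd163 at 91.8 CPM (0.763), Cytl1 at 26.5 CPM (0.817), Gpm6a at 32.1 CPM (0.795) and Gsn at 1341 CPM (0.855). The same held for Hpgd at 26.8 CPM (0.902), Lyz2 at 285 CPM (0.866), Myl7 at 173 CPM (0.857), Nppa at 630 CPM (0.765) and Ocln at 5.21 CPM (0.791). The same held for Pf4 at 15.6 CPM (0.736), Scgb1a1 at 732 CPM (0.907), Upk3b at 24.4 CPM (0.875) and Vegfd at 12.8 CPM (0.888). The lowest value of its group was in W1, with the gap ratio in parentheses, for Rgs5 at 382 CPM (0.79) and S1pr1 at 66.8 CPM (0.783). The highest value of its group was in K4, with the gap ratio in parentheses, for Actc1 at 4990 CPM (0.82), Apln at 4.35 CPM (0.819), Nppa at 125 CPM (0.748), Scgb1a1 at 0.681 CPM (0.742) and Vegfa at 239 CPM (0.813). The highest value of its group was in K2, with the gap ratio in parentheses, for Hpgd at 11.1 CPM (0.828).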

How the results depend on the processing

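Under all 22 alternatives, 0 of the 10 genes passed the adjusted threshold, and 8 of the 10 kept the sign of their log2 fold change. Of these, Pecam1 ran from -0.26 to -0.0004, the latter without W1 and K4, and so had no direction there. The exceptions were Flt4, which was -0.018 with library totals alone, and Eng. With 1 library left out, Eng ran from -0.15 to 0.033; it was 0.014 without W1 and K4 and 0.061 without W1 and W2. Kdr ran from 0.28 to 0.59 and Vwf from -0.61 to -0.20 over the 22, with adjusted p from 0.226 to 0.95 and from 0.28 to 0.97. The count of unadjusted p under 0.05 among the 10 was 4 with DESeq2, 4 without K5 and 1 without W1 and W2. Calls over all genes numbered 59, 118 with DESeq2, and 47 to 75 with 1 library left out. Log2 ratio differences with 1 library left out ran from -0.492 to -0.0481 for Flt1 to Kdr, -0.49 to -0.249 for Flt4 to Kdr, 0.204 to 0.318 for Tie1 to Tek, -0.415 to -0.151 for Vwf to Pecam1, -0.392 to -0.174 for Eng to Cdh5 and -0.0658 to 0.457 for Aplnr to Kdr, and none passed; Aplnr to Kdr was -0.055 without W1 and K4. Leaving out W1 and W2, and the ratios without W1 and K4, were chosen after the data were seen. No paired analysis was possible because the labels give no replicate number that the groups share. Aplnr rests on 36 to 462 counts a heart, and intervals cover the spread between 5 hearts a group only.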
